A study of Mus musculus with 28 samples.

Results

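Gata1 to Gata6 are the 6 genes of the GATA family of transcription factors, and they were taken by name from the RefSeq annotation of the mouse genome, build GRCm38, in which 21887 protein-coding genes lie on chromosomes 1 to 19, X and Y. The measurement was a list of intervals enriched for H3K27ac, the acetylation of histone H3 at lysine 27 that marks active promoters and enhancers. The cells were cranial neural crest cells, which build much of the face, sorted from wild-type mouse embryos at E10.5. They comprised 4 populations, FNP, Mx, Md and PA2 in the labels, with 1 chromatin immunoprecipitation library from each. The authors merged the 4 libraries before calling intervals. The reporter or gate behind the sort is not given in the sources used here. Because intervals were called on the merged reads, none carries a population, no value has a replicate error, and no test between populations or between genes could be made. The score of an interval is the authors' own value from the peak caller, larger where enrichment was more significant. Read depth is unknown. Of the 125826 intervals in the list, 153 lay over a Gata gene or within 150 kb of it.

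GATA factors bind the DNA letters from which they take their name through zinc fingers that all family members share. In vertebrates they are usually divided into a blood group and a heart group. Gata1 directs the formation of red blood cells and megakaryocytes, and Gata2 maintains blood stem and progenitor cells. Gata3 directs T-cell development, and it also acts in sympathetic neurons, the inner ear and the kidney. Mice that lack Gata3 have facial and jaw defects, so it is described here as the jaw-linked member. Gata4, Gata5 and Gata6 act in the heart and in the endoderm, and Gata6 is also known from the neural crest cells that help to form the outflow tract of the heart.

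The promoter letters are shown because the listed transcription starts differ in how they lie to the nearest H3K27ac interval. RefSeq sequences of build GRCm38.p6 were at hand for 5 starts of 4 members, and the 250 bases before each start are given 5′ to 3′. They cover chrX:7967911-7968160 on the minus strand for Gata1, chr6:88193641-88193890 on the plus strand for the distal start of Gata2, chr6:88198414-88198663 on the plus strand for its proximal start, chr2:9878601-9878850 on the minus strand for Gata3 and chr2:180334680-180334929 on the minus strand for Gata5. Capitals mark the bases that lie inside a deposited H3K27ac interval. A sequence with no capitals had no interval over it.
Gata1: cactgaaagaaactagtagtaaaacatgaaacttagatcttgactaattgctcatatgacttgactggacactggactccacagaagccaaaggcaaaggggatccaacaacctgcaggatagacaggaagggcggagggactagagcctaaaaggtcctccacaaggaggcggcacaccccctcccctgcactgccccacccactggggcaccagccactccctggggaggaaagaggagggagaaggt
Gata2 distal start: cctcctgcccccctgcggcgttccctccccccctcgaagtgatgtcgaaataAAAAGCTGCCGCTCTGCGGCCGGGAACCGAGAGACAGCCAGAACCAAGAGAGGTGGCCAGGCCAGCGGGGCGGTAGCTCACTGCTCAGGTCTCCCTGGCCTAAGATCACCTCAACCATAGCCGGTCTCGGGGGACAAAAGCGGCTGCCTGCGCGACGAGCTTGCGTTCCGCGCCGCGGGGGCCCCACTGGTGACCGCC
Gata2 proximal start: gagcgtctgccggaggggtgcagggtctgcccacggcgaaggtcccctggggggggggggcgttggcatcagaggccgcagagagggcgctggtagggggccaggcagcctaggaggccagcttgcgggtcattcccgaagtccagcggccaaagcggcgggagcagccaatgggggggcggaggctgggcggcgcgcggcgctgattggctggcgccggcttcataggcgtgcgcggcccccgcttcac
Gata3: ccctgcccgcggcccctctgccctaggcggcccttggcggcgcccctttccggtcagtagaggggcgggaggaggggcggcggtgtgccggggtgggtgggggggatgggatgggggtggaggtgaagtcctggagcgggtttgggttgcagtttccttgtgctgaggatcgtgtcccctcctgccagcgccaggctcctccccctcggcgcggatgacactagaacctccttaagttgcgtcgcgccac
Gata5: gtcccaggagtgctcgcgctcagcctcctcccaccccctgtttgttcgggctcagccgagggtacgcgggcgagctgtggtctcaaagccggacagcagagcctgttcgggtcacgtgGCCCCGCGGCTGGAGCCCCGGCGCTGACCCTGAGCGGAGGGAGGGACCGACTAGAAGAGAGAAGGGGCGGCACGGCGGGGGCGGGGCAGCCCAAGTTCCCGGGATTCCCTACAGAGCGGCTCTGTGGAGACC

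The upstream letters of Gata2 and Gata5 lay partly under an interval, and those of Gata1 and Gata3 did not. An interval covered 198 of the 250 bases before the distal Gata2 start and 132 of the 250 before the Gata5 start. It covered 0 of the 250 bases at the proximal Gata2 start, at Gata3 and at Gata1. The distal Gata2 start is known for its use in blood progenitors and nerve cells, and the proximal one for use in most tissues that express the gene.

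**Figure D1:**
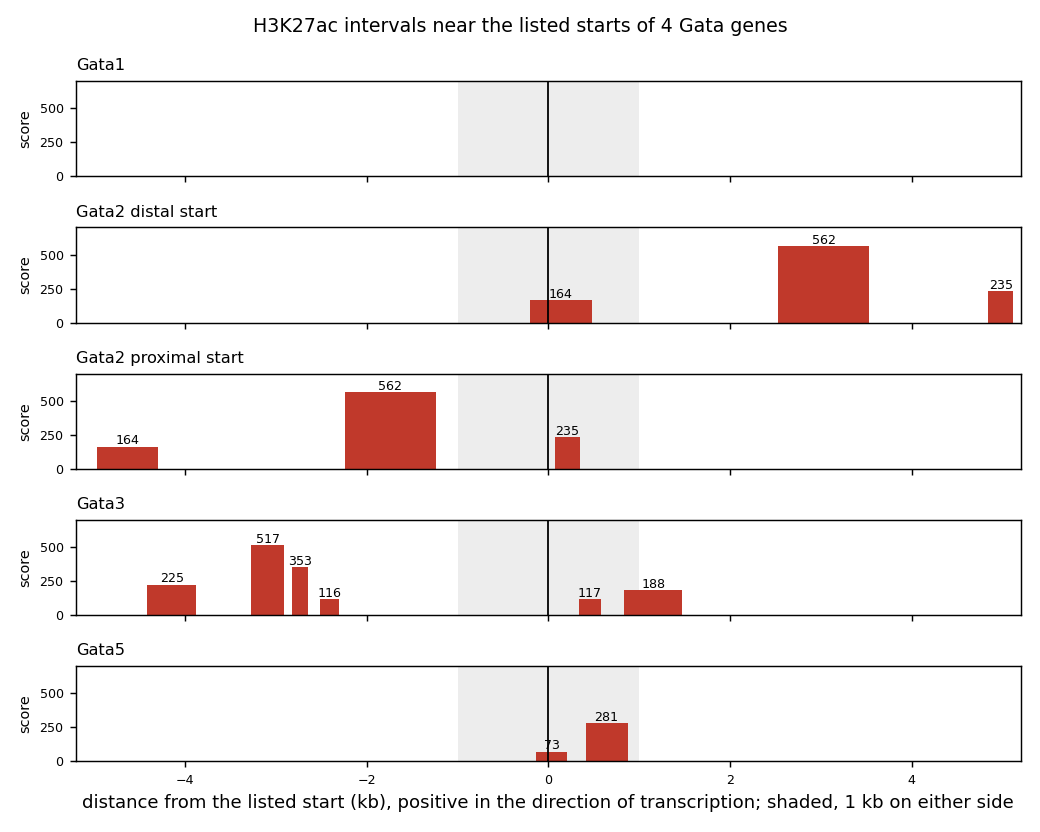
H3K27ac intervals near the 5 listed starts of Gata1, Gata2, Gata3 and Gata5. The horizontal axis gives the distance from the start in kb along the direction of transcription, the vertical axis the score, the width of a block the width of the interval, and the number above it its score. Gata1 had no interval in the range shown, and the highest score, 562, lay between the 2 Gata2 starts.

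With 1 kb allowed on either side, Gata2, Gata3 and Gata5 had an interval at a listed start and Gata1 had none. That is 3 of 4 members with a listed start, against 65.5% of the 17492 protein-coding genes that have one, so the share was close to the background. The interval at the distal Gata2 start (chr6:88193693-88194367) began 198 bases before the start, ended 476 bases after it and had a score of 164. The interval at the proximal start (chr6:88198737-88199013) began 73 bases after it and had a score of 235. The highest-scored interval of the gene, at 562 and 1007 bp wide (chr6:88196420-88197426), lay between the starts, from 2529 to 3535 bases after the distal start. It covered a listed start, at 88197383, of Gm38708, a long non-coding RNA gene on the opposite strand that overlaps Gata2. An interval there cannot be given to Gata2 or to Gm38708, since acetylation has no strand.

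Called intervals lay on both sides of the listed Gata3 start, and none covered the start itself. Inside the gene, an interval with a score of 117 began 337 bases after the start, and another with 188 began 835 bases after it. Upstream of the start lay a group of 4 intervals within 2119 bp (chr2:9880901-9883019), from 2301 to 4419 bases before the start, with scores of 116, 353, 517 and 225 in order of coordinate. The interval with a score of 353 covered the listed start, at 9881246, of the long non-coding RNA gene 4930412O13Rik, which is read in the opposite direction from Gata3. The interval with 225 lay 22 bases below the lower-coordinate end of a further long non-coding RNA gene, 9230102O04Rik. The Gata3 annotation extends above all 4 intervals, to 9887953, so they count as lying over the gene.

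Gata5 had an interval across its start (chr2:180334473-180334811), from 132 bases before it to 206 after it, with a score of 73. A stronger interval, with a score of 281, lay from 410 to 872 bases after the start. The interval with 281 was also within 1 kb of an end of Gata5os, a long non-coding RNA gene on the opposite strand.

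The promoters of Gata2, Gata3 and Gata5 were rich in the dinucleotide CpG, and that of Gata1 was poor in it. The 250 bases held 22 CpG at the distal Gata2 start, 24 at the proximal one, 19 at Gata3 and 22 at Gata5, but 2 at Gata1. The ratio of observed to expected CpG was 0.785, 0.741, 0.633 and 0.724 at those 4 starts and 0.110 at Gata1. Over all 21263 listed promoters of protein-coding genes, 95.8% of the 9509 with a ratio of at least 0.6 had an interval within 1 kb, against 40.1% of the 11754 with a lower ratio. The highest score within 1 kb was 164 and 235 at the Gata2 starts, 188 at Gata3 and 281 at Gata5. Among the 9113 CpG-rich promoters with an interval, its median was 3505, with quartiles of 1754 and 5714. The Gata scores were higher than 2.46%, 3.94%, 2.96% and 4.99% of such promoters, so each lay near the bottom of the range.

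Motif letters were searched on both strands of these windows. Neither AGATAA nor TGATAA, common forms of the GATA motif, occurred before any of the 5 starts. They occurred in 8.81% and 6.94% of all promoters of the same length. TAATTA, a core of homeobox factor motifs, was found in 0 of these 5 and in 4.31% of all promoters. GGGCGG, the GC box bound by Sp factors, was found before all 5 starts and in 42.6% of all promoters. The letters CCAAT occurred 2 times before the proximal Gata2 start only, and in 35.4% of all promoters. CANNTG, the E-box, occurred before the Gata1 and Gata5 starts and in 62.8% of all promoters. TATAAA occurred before none of the 5 and in 11.6% of all promoters. These windows are short and the motifs may overlap each other, so a missing match says only that the letters are not in these bases. Base composition also differed, with 67.2% to 74% G and C in the Gata2, Gata3 and Gata5 windows against a median of 55.6% over all promoters. Motif shares among promoters of like composition were not counted.

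Over the whole annotated gene, 5 of the 6 members had at least 1 interval, against 73.1% of all protein-coding genes, again close to the background. Together the 6 genes held 19 intervals. Their scores ran from 57 to 562 with a median of 196, and their widths from 141 to 1007 bp with a median of 374 bp. With scores of at least 100, the same 5 members had an interval over the gene, against 68.8% of protein-coding genes. None of the 19 reached a score of 1000, which 14487 of all 125580 intervals on these chromosomes did. Counted by gene, 0 of the 6 members had an interval with at least that score over them, against 48.8% of all protein-coding genes. The highest score over the gene was 562 at Gata2, 517 at Gata3, 481 at Gata6, 281 at Gata5 and 211 at Gata4. All 5 values lay below 574, the lower quartile of the 16001 genes with an interval over them, whose median was 2151. With no replicate error, neighbours in that order cannot be said to differ.

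**Figure D2:**
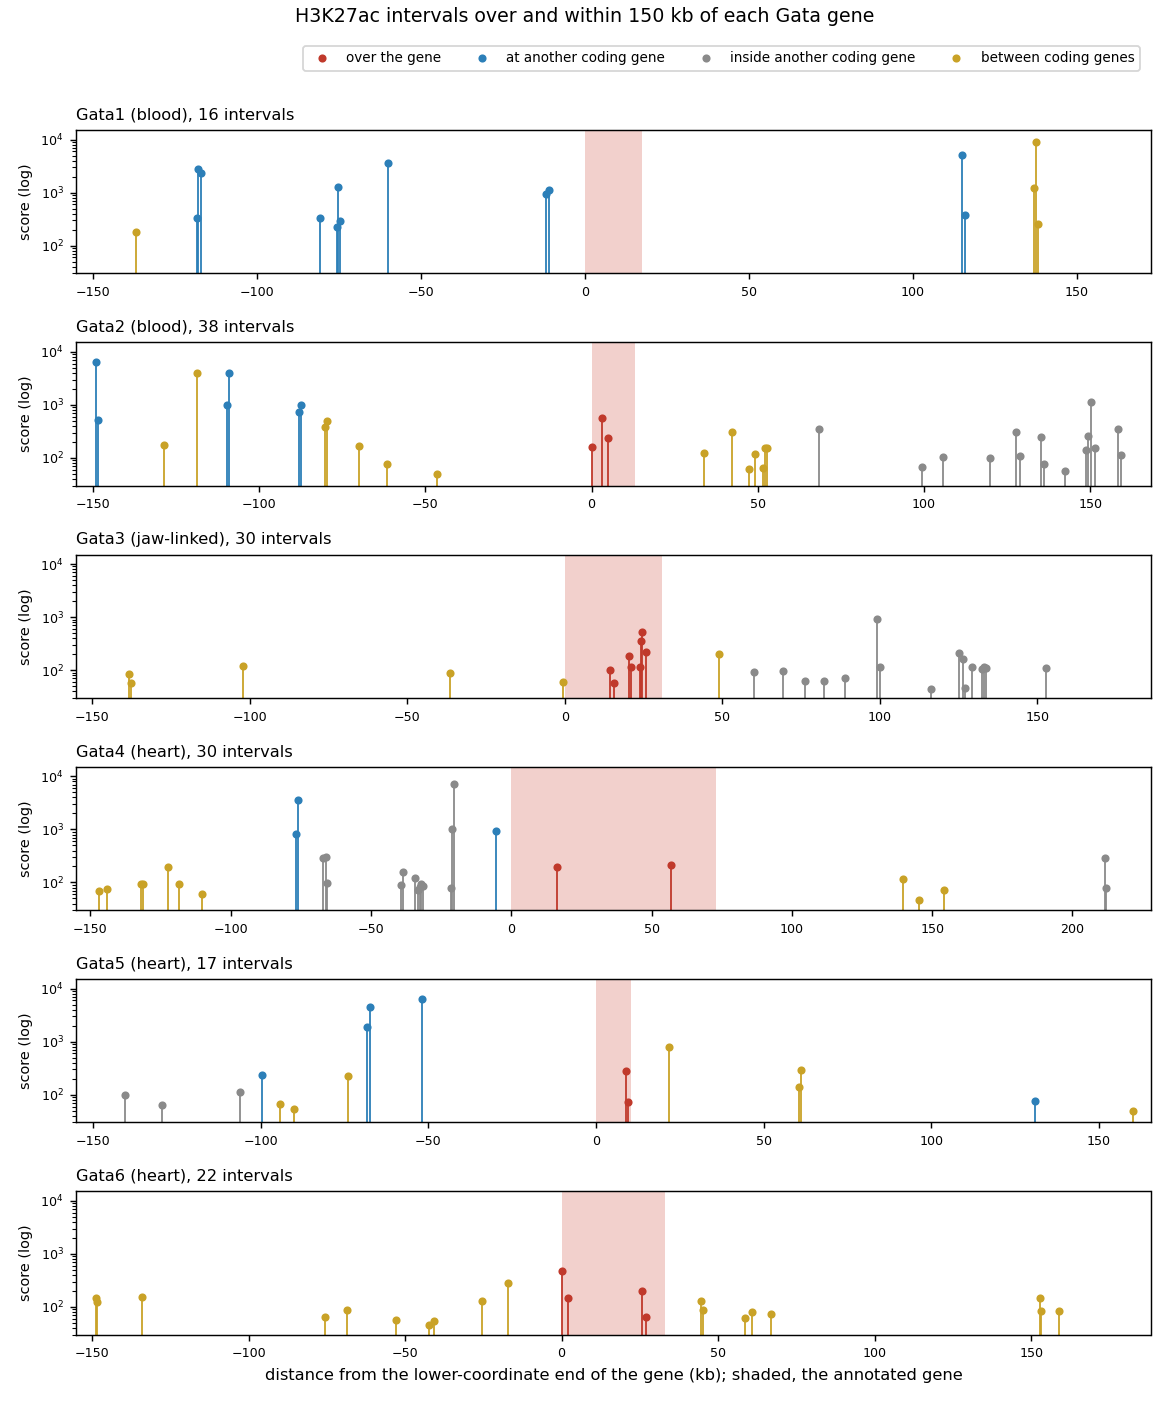
H3K27ac intervals over each Gata gene and within 150 kb of it. The horizontal axis gives the distance from the lower-coordinate end of the gene in kb, the vertical axis the score on a log scale, and each stem an interval, coloured by where it lies. Intervals over the Gata genes stay at or below 562, those at ends or starts of other protein-coding genes reach 6469, and Gata1 has none over it.

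Among the blood members, Gata2 had called intervals over the gene and Gata1 had none, which in a list of unknown depth does not show that Gata1 lacked acetylation. Gata1 (chromosome X, 7959260 to 7976663) had 0 intervals over its 17.4 kb. The nearest interval lay 10.6 kb away at Hdac6, the gene of a tubulin deacetylase and the next protein-coding gene on that side. It began 17 bases above the lower-coordinate end of Gm39488, a long non-coding RNA gene whose annotation runs on across Gata1. On the other side the nearest interval lay 97.0 kb away at Suv39h1, the gene of a histone H3 lysine 9 methyltransferase, and Glod5, the next gene there, had none. A stretch of 124.9 kb around Gata1 thus held no interval. Still, 16 intervals lay within 150 kb, of which 12 were at other protein-coding genes. Those with the highest scores were at Suv39h1 (5217) and at the adjoining ends of Pqbp1 and Timm17b (3568). The highest score in the window, 9146, belonged to a narrow interval of 349 bp within 1 kb of the transcribed pseudogene Gm6787, 119.9 kb from Gata1. The X chromosome was sparse in this list, with 11.7 intervals per Mb against 44.8 to 67.8 on the autosomes. The 16 around Gata1 were above the median of 5 for genes of the X chromosome and below the median of 22 for all protein-coding genes.

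Gata2 (chromosome 6, 88193891 to 88207032) held its 3 intervals in the part of the gene near its starts. They covered 13.4% of the gene, more than in 89.6% of protein-coding genes, of which the median was 2.78%. The window of 150 kb held 38 intervals, the most of any member and more than around 85.3% of protein-coding genes. Only 6 of them were at ends or starts of other protein-coding genes, with scores up to 6469 at Rab7, a gene of endosome traffic, and 3949 at Rpn1, a gene of protein glycosylation and the next on the lower side. The Rab7 intervals lay just inside the window, at 148.2 and 148.6 kb. Dnajb8, the chaperone gene next on the upper side, had no interval at an end. Beyond it, 7 intervals with scores of 61 to 306 lay between 20.6 and 39.4 kb above Gata2, and 15 more lay inside Eefsec, a gene of selenocysteine incorporation. A wide interval with a score of 4048 lay 117.9 kb below Gata2, between genes and away from every protein-coding gene end or listed start.

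The jaw-linked member, Gata3 (chromosome 2, 9857078 to 9887953), held 8 intervals, the most over any member. Per length, Gata3 had 2.59 intervals per 10 kb, Gata2 2.28, Gata5 1.92, Gata6 1.21 and Gata4 0.275, with a median of 0.615 over all protein-coding genes. Gata3 stood below Gata2 in this order with scores of at least 100 and in the higher-scored 50% of intervals (1.94 against 2.28 in both) and with intervals closer than 1 kb joined (1.30 against 2.28). The intervals over Gata3 covered 8.12% of it. Apart from the 6 intervals around the start, 2 with scores of 99 and 57 lay further into the gene. An interval with a score of 61 lay 492 bases beyond its 3′ end. That end, and not the 5′ end, is where Gata3 counted as having an interval at a gene end.

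The flanks of Gata3 were unequal. On the 3′ side, 5 intervals lay within 150 kb, with scores of 57 to 122, and the next protein-coding gene, Celf2, the gene of an RNA-binding protein, was 2460.7 kb away. That stretch held 34 intervals in all, or 13.8 per Mb, against 52.9 per Mb on chromosome 2 as a whole. On the other side, 17 intervals lay within 150 kb. Of these, 1 with a score of 198 lay between the genes and covered the listed start of the long non-coding RNA gene Gm13262. The other 16 lay inside Taf3, the gene of a subunit of the general factor TFIID. The strongest of them (chr2:9955497-9956632) was 1136 bp wide, had a score of 911 and lay 67.5 kb from Gata3. No interval in this window was at the end or listed start of another protein-coding gene. Taf3 did have an interval at an end, with a score of 6276, but that end lay beyond the window.

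Of the heart members, Gata6 and Gata5 had an interval at a gene end and Gata4 had none. Gata4 (chromosome 14, 63198914 to 63271712) is the longest member at 72.8 kb and held 2 intervals, with scores of 198 (chr14:63214802-63215388) and 211 (chr14:63255699-63256042). They covered 1.28% of the gene, less than the median of 2.78% over all protein-coding genes. The 30 intervals in its window lay mostly below it, with 23 on the side of Neil2, Fdft1 and Ctsb and 5 above. Neil2, a DNA repair gene that ends 4.8 kb from Gata4, had a score of 928 and Ctsb, the cathepsin B gene, one of 3629. Fdft1, the squalene synthase gene, held the interval with the highest score, 7022. On the upper side, Blk, a kinase gene of B cells 101.1 kb away, had no interval at an end.

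Gata5 (chromosome 2, 180325088 to 180335503) had only the 2 intervals at its start described above. Its window held 17 intervals, with 5 at other protein-coding genes. The highest scores were 6323 at Cables2 and 4581 at the adjoining ends of Cables2 and the ribosomal protein gene Rps21. Rbbp8nl, the next gene on the lower side, had none, and Slco4a1, an anion transporter gene on the upper side, had a score of 75. Closest to Gata5 outside the gene was an interval of 718 bp with a score of 784, higher than either interval over Gata5 (chr2:180346550-180347267). It lay 11.0 kb above the gene and 59 bases beyond the annotated end of the long non-coding RNA gene Gm52543. A pair with scores of 139 and 297 lay 49.9 and 50.7 kb above Gata5, within 1 kb of ends of B230312C02Rik and Mir1a-1hg. Mir1a-1hg is the host gene of a microRNA of heart and skeletal muscle.

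Gata6 (chromosome 18, 11052510 to 11085636) held 4 intervals. The strongest, with a score of 481, lay across its lower-coordinate end (chr18:11052475-11053045), which it shares with the long non-coding RNA gene Gata6os. A second interval, 939 bp wide with a score of 148, began 1582 bases into the gene. Further up lay a pair with scores of 196 and 64. Gata6 stood alone in its window, with no other protein-coding gene within 150 kb. Mib1, a gene of Notch ligand trafficking, was 233.9 kb away on the lower side and Rbbp8, a DNA repair gene, 547.6 kb away on the upper side. All 18 intervals outside Gata6 therefore lay between protein-coding genes. Their median score was 85.5 and the highest, 280, lay 16.7 kb below the gene. The stretches up to Mib1 and Rbbp8 held 55.6 and 42.0 intervals per Mb, against 53.4 on chromosome 18.

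The classes can be set side by side only as values, since each holds 1 to 3 genes. The 2 blood genes together held 3 intervals, all over Gata2, with scores of 164 to 562. The jaw-linked gene held 8 with scores of 57 to 517, and the 3 heart genes held 8 with scores of 64 to 481. Covered length over the genes and their borders was 1.96 kb for the blood genes, 2.51 kb for the jaw-linked gene and 4.13 kb for the heart genes. These totals do not allow for gene length, which ran from 10.4 kb at Gata5 to 72.8 kb at Gata4. The covered share was 0% of Gata1, 13.4% of Gata2, 8.12% of Gata3, 1.28% of Gata4, 7.70% of Gata5 and 7.14% of Gata6. The score ranges overlapped. By value, Gata2, Gata3 and Gata6 had higher top scores than Gata4 and Gata5, but with no replicate error no order of the classes can be drawn. The 562 over Gata2 lay at a listed start of Gm38708. The next score over Gata2 was 235, below the 281 of Gata5.

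An interval lay within 1 kb of an annotated gene end at 4 of the 6 members, against 65.0% of protein-coding genes. The members were Gata6 with a score of 481, Gata2 with 164, Gata5 with 73 and Gata3 with 61, and Gata1 and Gata4 had none. Only Gata6 and Gata2 were left with scores of at least 100, against 61.2% of protein-coding genes. This count concerns annotated ends and not listed starts, and the Gata3 interval with 61 lay at its 3′ end. Within 1 kb of the listed start, the top score was 188 at Gata3 and 281 at Gata5.

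**Figure D3:**
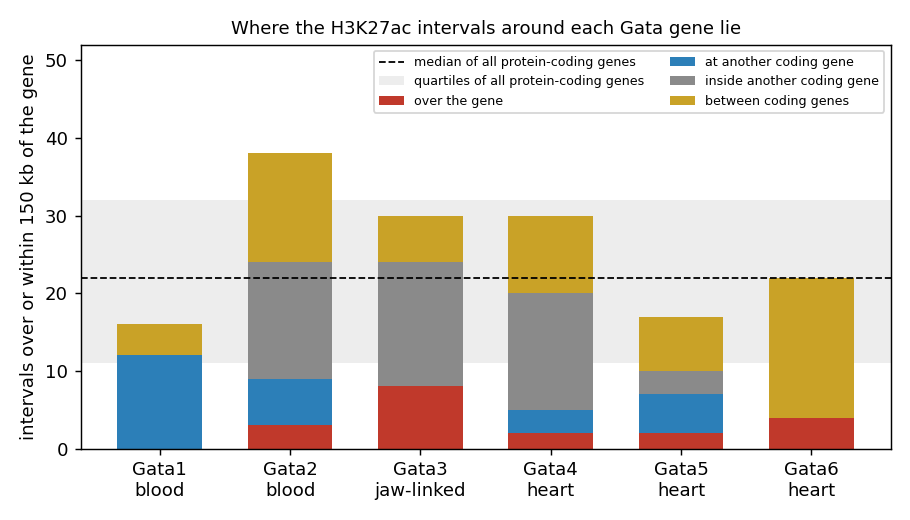
Number of H3K27ac intervals over or within 150 kb of each Gata gene (vertical axis), divided by where they lie. The dashed line is the median over all protein-coding genes, 22, and the shaded band their quartiles, 11 and 32. Intervals at other protein-coding genes make up 12 of the 16 around Gata1 and 0 of those around Gata3 and Gata6.

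The strong intervals in the windows did not lie over the members. Of the 153 intervals, 18 had a score of at least 1000, of which 0 lay over a Gata gene, 12 at other protein-coding genes and 6 elsewhere. Both intervals with the highest scores, 9146 beside Gm6787 and 7022 inside Fdft1, are among those 6. The 26 intervals at other protein-coding genes had a median score of 992, near the 1055 of all such intervals in the list. The 108 intervals that were neither over a Gata gene nor at another protein-coding gene had a median score of 109, near the 98 of all intervals away from protein-coding ends and starts. Start sites inside genes that the RefSeq promoter table does not list were not taken into account here, and Fdft1 is not in that table.

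The windows of most members held more intervals away from gene ends than the typical gene. Leaving out those over the gene and those within 1 kb of any protein-coding end or listed start, 29 intervals were left around Gata2, 25 around Gata4, 21 around Gata3, 18 around Gata6, 10 around Gata5 and 4 around Gata1. The median over all protein-coding genes was 11, with quartiles of 5 and 18. Those counts were higher than around 94.0% of protein-coding genes for Gata2, 89.0% for Gata4, 81.4% for Gata3, 73.6% for Gata6, 44.2% for Gata5 and 21.0% for Gata1. Many of these intervals were weak. Scores of at least 100 were held by 22 around Gata2, 9 around Gata4, 11 around Gata3, 7 around Gata6, 5 around Gata5 and 4 around Gata1. The matching count over all genes was not made at that limit. Gata1, with the fewest, and Gata2, with the most, are both blood members. Windows differ in how many genes they hold, with 14 other protein-coding genes around Gata1, 6 around Gata5, 4 each around Gata2 and Gata4, 1 around Gata3 and 0 around Gata6. The part of gene spacing in the counts was not tested.

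Partner genes of the GATA factors were acetylated to very different degrees. Of 10 blood partners, 4 had a gene end marked by an interval (65.0% of all protein-coding genes), and 8 had an interval over the gene (73.1%). They had a median top score of 501.5 over the gene, against 900 for all protein-coding genes. The highest were Ldb1, a bridging cofactor, at 2749, Spi1, the myeloid factor PU.1, at 1492, and Klf1, a red blood cell factor, at 1480. Gfi1b and Lyl1 had no interval over the gene. Zfpm1, the cofactor FOG1 of Gata1, had 7 intervals with a top score of 390 over the gene, and one outside it but within 1 kb of its end had 1475. Of 10 heart partners, 8 had a gene end marked by an interval (65.0% of all protein-coding genes), and 9 had an interval over the gene (73.1%), with a median top score of 184. The highest were Srf at 7984, Mef2c at 3060 and Hand2 at 635, of which Hand2 and Mef2c are also regulators of the crest in the face. Nkx2-5, a defining heart gene, had none, and Zfpm2, the cofactor FOG2 of Gata4, had a top score of 447.

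Most of the other genes whose proteins carry a GATA-type zinc finger had higher top scores than any of the 6 members. Of 9, 8 had a gene end marked by an interval (65.0% of all protein-coding genes), and 8 had an interval over the gene (73.1%). All those 8 had a score of at least 1000 over the gene, against 48.8%. The median top score was 381 for the 6 Gata genes, with Gata1 at 0, against 4951 for these genes and 900 for all protein-coding genes. Gatad1 had 6098, Mta2, a subunit gene of the NuRD complex, 5159, and Rere 5142. Trps1 is a transcriptional repressor that is mutated in the human tricho-rhino-phalangeal syndrome of face, hair and skeleton. It had 26 intervals over the gene with a top score of 2389. Its annotation (chromosome 15, 50654757 to 50890631) is longer than that of any Gata gene, and its intervals are not given per length. Zglp1, a germ cell gene, had none over it.

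**Figure D4:**
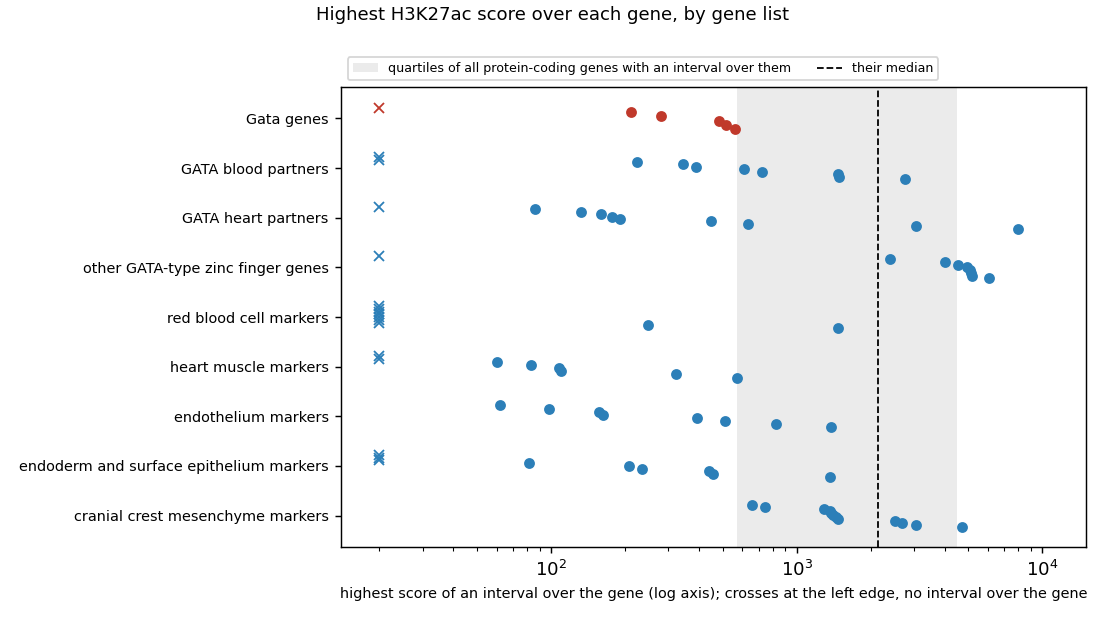
Highest H3K27ac score over each gene (horizontal log axis) for the 6 Gata genes and 8 gene lists, with crosses for genes with no interval over them. The grey band spans the quartiles, 574 and 4499, of all protein-coding genes with an interval over them, and the dashed line is their median, 2151. All 5 Gata genes with an interval lie left of the band, and most other GATA-type zinc finger genes at or right of its upper edge.

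Markers of the sorted cells and of cells in which GATA factors are known to act were read from the same list, in which 65.0% of all protein-coding genes had an interval at a gene end. All 12 cranial crest mesenchyme markers had an interval at a gene end, with top scores over the gene of 660 to 4697 and a median of 1429, above each Gata gene. All 8 endothelium markers had one, with a median of 276.5 and a range of 62 to 1377. Of 9 endoderm and surface epithelium markers, 4 had an interval at a gene end, with a median of 207 over the gene, and Foxa1, Foxa2 and Sox17 had none over it. Of 8 heart muscle markers, 4 had one at an end, with a median of 95.5 and a highest value of 574 at Ryr2. Of 9 red blood cell markers, 2 had one at an end, Klf1 and Epor, and the 6 globin genes had none. Within 150 kb, Hbb-bt, Hbb-bs and Hbb-y had 0 intervals, and Hba-x, Hba-a1 and Hba-a2 had 24 each. Near-identical globin copies can lose reads in alignment, and whether this bears on the globin genes here was not tested. Klf1 counts in both the blood partner and the red blood cell lists. Gata2 is also known from endothelium and Gata4 to Gata6 from endoderm, and whether cells of those kinds among the sorted cells bear on the Gata intervals was not tested.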

How the data were processed

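Per the text deposited with the list, the authors merged the alignments of the 4 wild-type E10.5 H3K27ac libraries and called peaks on them together with MACS2 2.1.3.3, using no model, a shift of 0, reads extended to 141 bp, duplicate reads retained and a q-value cutoff of 0.001. No control is among the options. Per the submitters' processing notes, tools included bcl2fastq 2.17 and Bowtie 1.1.1, and the build was GRCm38, also called mm10. The score is the authors' deposited value, by the caller's convention a whole-number multiple of −log10 of the q-value. It depends on depth, which is unknown, and was used only to describe, rank and filter intervals. With duplicates kept and no control, piled-up reads can give high scores. The other 24 of the 28 libraries were not analysed here.

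Gene positions came from RefSeq for GRCm38.p6. An interval counted as over a gene, or in its window of 150 kb, with an overlap of at least 1 bp, and at a gene end within 1 kb of either annotated end. Intervals at other protein-coding genes lay within 1 kb of an end or of a start in RefSeq's promoter table, which names 17492 protein-coding genes and 4 of the 6 members. Motifs and CpG were counted in the 250 bases before a start. There is 1 merged list, so no test was run. Values stand beside the same value over all protein-coding genes where it was counted. None is given for the alternative windows, for joined intervals or for window counts at other score limits. Members and lists were chosen with earlier results of these data known. All 6 members, their nearest protein-coding neighbours, the genes at the strongest intervals of each window, and the highest and unmarked partner genes are named. Zfpm1, Zfpm2 and Trps1 were added for their known roles, and genes that hold a described interval after their values were seen. Classes follow textbook roles. A marker of the red blood cell list is not reported here. Counting functions were tested on simulated intervals. Python 3.11.15, pandas 2.3.3, numpy 2.4.6 and matplotlib 3.10.9 were used. Alternatives were score limits, window sizes, joining of close intervals and interval midpoints.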

Additional observations from a re-analysis of the deposited data

How the results depend on the processing

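Counts rest on 1 merged list of unknown depth, so no interval can be tied to a population and no difference between genes has an error. No paired analysis was possible because the result comes from 1 merged list with no replicates and no test. Of 79 values recomputed under alternatives, 48 stayed within 1.5 times the main count and 31 did not. With scores of at least 100, the counts within 150 kb were 17 for Gata3, 14 for Gata4, 10 for Gata5 and 10 for Gata6. At that limit 1 interval was left over Gata5. An interval lay at a gene end of 2 Gata genes and 5 endothelium markers, against 61.2% of protein-coding genes. In the higher-scored 50% of intervals, the window counts were 15 for Gata3, 14 for Gata4, 10 for Gata5 and 10 for Gata6. In that set 1 interval was left over Gata5, and 2 Gata genes had one at an end, against 60.5% of protein-coding genes. At the gene-end base itself, 2 Gata genes had an interval, against 32.6% of protein-coding genes. A window of 100 kb gave 9 for Gata1 and 20 for Gata2. A window of 50 kb gave 2 for Gata1, 11 for Gata2, 14 for Gata3, 13 for Gata4, 4 for Gata5 and 13 for Gata6. A window that stopped at the nearest protein-coding gene gave 1 for Gata1, 10 for Gata2, 14 for Gata3, 5 for Gata4 and 6 for Gata5, while Gata6 kept its 22. Joining intervals closer than 1 kb gave 8 in the window of Gata1 and 18 in that of Gata4, 4 over Gata3 and 1 over Gata5. Interval midpoints and a gene-end window of 2.5 kb left each count within 1.5 times. The causes were not tested, beyond the smaller sets of intervals that these settings use by construction.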
